A study of Mus musculus with 9 samples.

Results

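The genes described here decide whether a cell leaves the resting state and copies its DNA. They were chosen by symbol as regulators of cell cycle entry, and each is read by probes annotated with that symbol alone: 3 activating E2F factors (E2f1, E2f2 and E2f3), 2 atypical E2F factors (E2f7 and E2f8), 3 pocket proteins (Rb1, Rbl1 and Rbl2) and 2 inhibitors of cyclin-dependent kinases (Cdkn1a and Cdkn1b). All 10 were measured, among 22180 genes tested. RNA came from dendritic cells (DCs), the antigen-presenting cells that prime T cells, sorted from mouse spleen by CD11c and MHC class II and hybridised to 1 array per sample. The 3 knockout samples, labelled C/EBPβ-/-, are from CD11c.Cre x C/EBPβflox/flox mice, in which Cre recombinase, driven by the CD11c promoter, removes a floxed gene for the transcription factor C/EBPβ from CD11c-expressing cells. The 6 control samples are labelled C/EBPβ+/+, and the labels name C57BL/6 and CD11c.Cre mice as sources without saying which control came from which. The design text names CD11c-Cre-eGFP mice for the controls, so by that text both groups carry the Cre. All samples are C57BL/6 and naive, without treatment, and no age is given. Whether replicates are separate animals is not stated, so a p-value here reflects sample-to-sample spread that could be technical.

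The question behind the comparison is how C/EBPβ shapes DC maturation and fate decisions without an immune challenge. Cell cycle entry turns on a switch between E2F factors and pocket proteins. In a resting cell the pocket proteins RB1, RBL1 (p107) and RBL2 (p130) hold E2F factors at their target genes and keep those genes off. Cyclin D with CDK4 or CDK6, and then cyclin E with CDK2, phosphorylate the pocket proteins and free E2F to turn on target genes. The targets include genes of DNA replication and also E2f1, E2f2, E2f7, E2f8 and Rbl1 themselves. The inhibitors p21 (Cdkn1a) and p27 (Cdkn1b) bind the cyclin-dependent kinases named above and hold the switch closed. In the DC lineage, division is a property of precursors and of part of the conventional DCs in the spleen, and DCs divide less as they mature.

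Cebpb, the deleted gene, had log2 intensities of 5.37, 5.60 and 5.42 in the knockouts, against a lowest of 6.64, a median of 6.77 and a highest of 7.15 in the controls (change -1.35, SE 0.11, adjusted p = 0.000742 by limma, a linear model fitted to all genes). The CD11c gene Itgax averaged 12.15 ± 0.04 in the knockouts and 12.16 ± 0.10 in the controls (SD, n = 3 and 6), and the MHC class II gene H2-Ab1 averaged 13.72 ± 0.03 in the knockouts and 13.68 ± 0.02 in the controls. Of 9 measured DC markers none passed an adjusted p of 0.05, and 0 of them had an unadjusted p under 0.05. Over all genes 0.906% passed, and 14.3% had an unadjusted p under 0.05. Array medians lay between 5.49 and 5.56, and the median gene averaged 5.93. Of 60 measured markers in 10 cell type lists, 1 was higher in the knockout and 0 were lower. Over all genes 0.415% were higher and 0.491% lower. The 1 marker was Jchain, the J chain of secreted immunoglobulin (log2 change 1.89, SE 0.36, limma's adjusted p = 0.046). The mean log2 level of the 7 measured B cell markers ranged from 7.56 to 8.62 in the knockouts and from 7.65 to 7.82 in the controls, the highest being knockout replicate 3. For the 8 markers of red pulp macrophages it ranged from 9.05 to 9.67 in the knockouts and from 8.12 to 9.55 in the controls. The part of these cells in the results below was not tested unless a value says otherwise.

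Without C/EBPβ, the E2F factors and the pocket proteins other than Rb1 had lower mean levels and Cdkn1a a higher one, but none of the 10 regulators passed the threshold of 0.05 over all genes. By limma with Benjamini-Hochberg adjustment, 0 of 10 were called, where 0.906% of all genes were called. The smallest adjusted p was 0.064 (Rbl1) and the largest 0.99 (Rb1). At an unadjusted p under 0.05 there were 7, against 14.3% of all genes: 6 were lower and 1 was higher in the knockout, where 8.82% of all genes were lower and 5.5% higher. The 3 knockout values lay below every control in 3 of the 10 (E2f3, E2f7 and Rbl1), as they did in 4.88% of all genes, and above every control in 0 of the 10, as they did in 2.52% of all genes. The count below every control was 6 without knockout replicate 1, and the count above every control was 1 without knockout replicate 3 or control replicate 2. Groups separate more easily with fewer samples, and the shares of all genes in these smaller sets were not counted. The median log2 change over the 10 was -0.22, and over all genes it was -0.01. In bulk RNA, fewer dividing cells in a sample and less RNA of these genes per cell cannot be told apart.

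**Figure D1:**
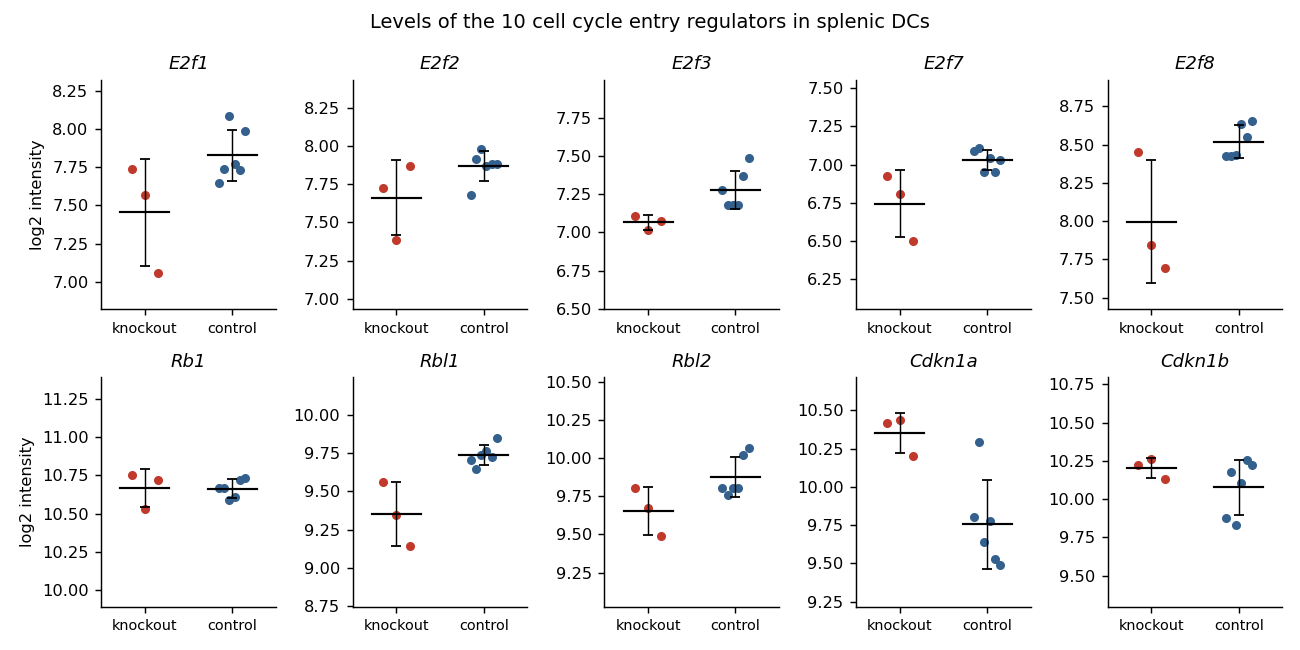
Log2 intensity of each of the 10 regulators in 3 knockout samples (left, red) and 6 control samples (right, blue), with group means (bars) and SD (whiskers); every panel spans the same number of log2 units. Knockout points lie below all controls for E2f3, E2f7 and Rbl1, and for E2f1, E2f7, E2f8, Rbl1 and Rbl2 the lowest point is knockout replicate 3.

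The atypical factors E2F7 and E2F8 bind E2F sites without a DP partner and without a pocket protein, and repress the genes that activating E2Fs turn on. E2f8 had the lowest mean change of the 10. Its log2 intensity was 8.45, 7.84 and 7.69 in knockout replicates 1 to 3, against a lowest of 8.42, a median of 8.49 and a highest of 8.66 in the controls. Knockout replicates 2 and 3 lay below every control, and replicate 1 lay within the control range. The change was -0.52 (SE 0.14, 95% confidence interval -0.84 to -0.21), or 1.44-fold lower, with limma's adjusted p = 0.115 and an exact two-sided permutation p of 0.0476 over all 84 ways to assign the samples to groups. Without knockout replicate 1 it was -0.75 with limma's adjusted p = 0.0119, without replicate 2 -0.45 (adjusted p = 0.333) and without replicate 3 -0.37 (adjusted p = 0.307). In both of the last the exact permutation p was 0.143.

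E2f7, the close relative of E2f8, differed less and in every knockout sample. It had 6.93, 6.81 and 6.50 in the knockouts, against a lowest of 6.95, a median of 7.04 and a highest of 7.11 in the controls, so the groups did not overlap, though knockout replicate 1 lay just under the lowest control. The change was -0.28 (SE 0.09, interval -0.48 to -0.09), with limma's adjusted p = 0.166. Its exact permutation p, 0.0119, is the lowest value that 84 assignments allow.

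The bases before the annotated E2f7 start are shown because it holds several matches to the motif bound by its own factor family. The stretch is the 250 bases at chr10:110745189-110745438, plus strand, from the RefSeq promoter table (GRCm38.p6), 5′ to 3′, with capitals marking matches to the E2F motif.
E2f7: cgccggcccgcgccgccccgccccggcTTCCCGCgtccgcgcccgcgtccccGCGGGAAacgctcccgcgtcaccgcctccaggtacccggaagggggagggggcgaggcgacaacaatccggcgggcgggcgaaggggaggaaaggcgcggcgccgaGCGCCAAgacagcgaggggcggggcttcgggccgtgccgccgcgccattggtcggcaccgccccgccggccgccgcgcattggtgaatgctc
The motif was searched on either strand, overlaps allowed, as TTCCCGC with the variants TTCGCGC and then TTGCCGC and lastly TTGGCGC. E2f7 had 3 matches, at 223, 198 and 92 bases before the start. E2f8 had 1 match, 111 bases before an annotated start that lies inside the longer annotated gene, shown here in 30 bases at chr7:48881690-48881719, minus strand.
E2f8: cagaggcgcggaTTGGCGCgcggggccccg
Of all 32851 RefSeq windows of 300 bases, 9.57% held at least 1 such match. Windows were found for 9 of the 10 regulators, and 5 of these genes (E2f2, E2f3, E2f7, E2f8 and Rbl1) had a match in a window. The E2f1 window, which also starts inside its longer gene, held none. A match is a stretch of letters and not evidence of binding.

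The activating factors E2F1, E2F2 and E2F3 recruit the transcription machinery to replication genes once freed from pocket proteins. E2f1 had 7.74, 7.57 and 7.06 in knockout replicates 1 to 3, against a lowest of 7.65, a median of 7.76 and a highest of 8.08 in the controls. Knockout replicates 2 and 3 lay below every control, and replicate 1 was within their range. The change of -0.37 (SE 0.14, interval -0.69 to -0.06) had limma's adjusted p = 0.266 and an exact permutation p of 0.0357, and without knockout replicate 3 it was -0.17 (adjusted p = 0.638).

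E2f3 was the steadiest of the activators across knockout samples. It had 7.11, 7.01 and 7.08 in the knockouts, against a lowest of 7.18, a median of 7.23 and a highest of 7.48 in the controls, with no overlap and a change of -0.21 (SE 0.08, interval -0.38 to -0.04, limma's adjusted p = 0.243, exact permutation p = 0.0238). The 250 bases before the outer annotated E2f3 start are shown as the promoter of a gene whose groups did not overlap (chr13:29986064-29986313, minus strand, RefSeq GRCm38.p6, capitals marking the E2F motif).
E2f3: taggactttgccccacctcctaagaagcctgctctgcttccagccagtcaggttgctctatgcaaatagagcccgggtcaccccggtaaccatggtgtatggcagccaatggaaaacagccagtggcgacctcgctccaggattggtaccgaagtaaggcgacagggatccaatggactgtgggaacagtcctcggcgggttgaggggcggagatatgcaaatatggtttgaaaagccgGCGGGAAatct
The match lies 11 bases before the start, and a further match lies 19 bases after it.

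E2f2 varied between knockout samples in another order than E2f1. It had 7.73, 7.39 and 7.87 in knockout replicates 1 to 3, against a lowest of 7.68, a median of 7.88 and a highest of 7.98 in the controls. Knockout replicate 2 alone lay below the controls, and replicate 3, the lowest sample for E2f1, stood at the control mean of 7.87. The change was -0.21 (SE 0.10, interval -0.43 to 0.02, limma's adjusted p = 0.39), and without knockout replicate 2 it was -0.07 (adjusted p = 0.82). The E2f2 match to the E2F motif lies 41 bases after its outer annotated start, within these 30 bases at chr4:136172294-136172323, plus strand.
E2f2: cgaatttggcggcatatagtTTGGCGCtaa

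Rbl1 came nearest to the threshold among the 10. It encodes p107, the pocket protein that is made when cells enter the cycle and whose gene is itself an E2F target. Its log2 intensity was 9.56, 9.35 and 9.14 in the knockouts, against a lowest of 9.65, a median of 9.73 and a highest of 9.85 in the controls. Every knockout sample lay below every control. The change was -0.39 (SE 0.09, interval -0.58 to -0.20), or 1.31-fold lower, with limma's adjusted p = 0.064 and the smallest exact permutation p, 0.0119. It passed 0.05 in 4 of 17 alternative fits, with adjusted p = 0.0215 without knockout replicate 1, 0.0261 with array weights, 0.0293 among genes above the median level and 0.0443 after a second quantile normalization. In the others the adjusted p reached 0.473. Rbl1 and E2f1 lie on chromosome 2, as does the deleted gene Cebpb, and the labels do not say how much flanking DNA came with the loxP-flanked allele. The 250 bases before the Rbl1 start are shown because Rbl1 had the smallest p of the 10 (chr2:157204535-157204784, minus strand, RefSeq GRCm38.p6, capitals marking the E2F motif).
Rbl1: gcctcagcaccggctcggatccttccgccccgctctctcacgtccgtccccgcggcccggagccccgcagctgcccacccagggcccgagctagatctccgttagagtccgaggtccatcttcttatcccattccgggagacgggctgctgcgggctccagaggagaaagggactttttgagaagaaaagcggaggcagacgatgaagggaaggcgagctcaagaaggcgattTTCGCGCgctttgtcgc
The single match lies 17 bases before the start.

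The other pocket proteins did not follow Rbl1 as closely. Rbl2 encodes p130, the pocket protein of resting cells and a part of the DREAM repressor complex. It had 9.80, 9.68 and 9.49 in the knockouts, against a lowest of 9.76, a median of 9.80 and a highest of 10.06 in the controls. Knockout replicates 2 and 3 lay below every control, and the change was -0.22 (SE 0.09, interval -0.42 to -0.01, limma's adjusted p = 0.315). Without knockout replicate 3 it was -0.14 (adjusted p = 0.667).

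Rb1, the retinoblastoma tumour suppressor, averaged 10.67 ± 0.12 in the knockouts and 10.66 ± 0.06 in the controls (SD, n = 3 and 6). Its brighter probe read 10.75, 10.53 and 10.72 in the knockouts, against a lowest of 10.59, a median of 10.67 and a highest of 10.73 in the controls. The change was 0.00 (SE 0.07), and its 95% interval from -0.14 to 0.15 bounds a difference of this probe in either direction at these sample numbers. A second, dim Rb1 probe read 5.21, 4.84 and 5.15 in the knockouts, against 4.03 to 4.99 in the controls, below the median gene in every sample. Its change was 0.51 (interval 0.08 to 0.93, limma's adjusted p = 0.278 with all probes tested). A further 2 probes carry the names of both Rb1 and Lpar6 and were not used.

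**Figure D2:**
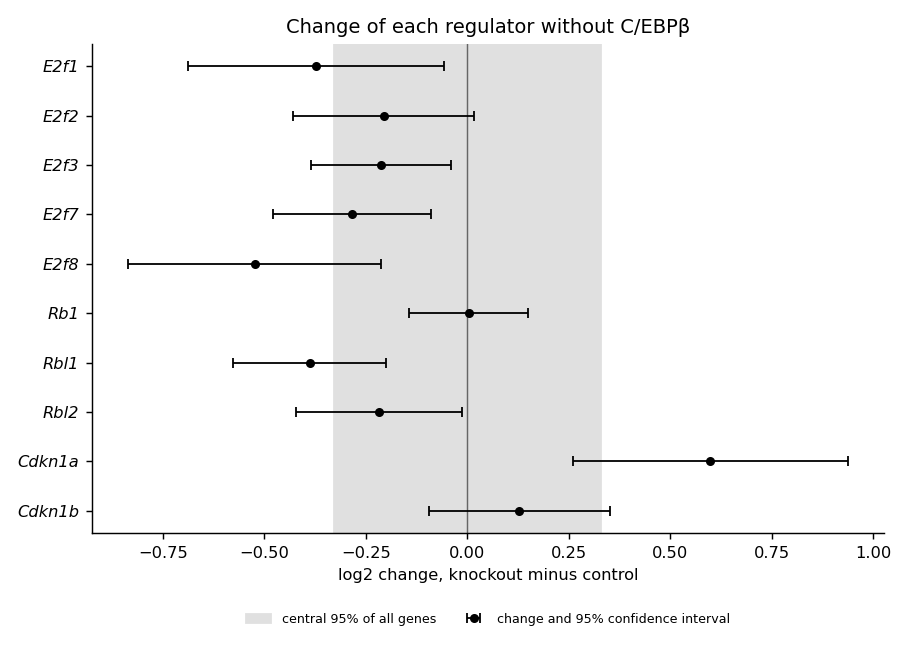
Log2 change (knockout minus control) of each regulator with its 95% confidence interval from limma; the grey band spans the central 95% of all 22180 genes, from -0.33 to 0.33. E2f1, E2f8 and Rbl1 lie left of the band and Cdkn1a right of it, while Rb1 lies at 0.00.

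Cdkn1a was the member with the largest difference in either direction. It encodes p21, an inhibitor of cyclin-dependent kinases that p53 and many stress and differentiation signals turn on. Its log2 intensity was 10.42, 10.44 and 10.20 in knockout replicates 1 to 3, against a lowest of 9.49, a median of 9.71 and a highest of 10.29 in the controls. Control replicate 2 lay above knockout replicate 3, so the groups overlapped by 1 control, and the other 5 controls lay at 9.80 or lower. The change was 0.60 (SE 0.15, interval 0.26 to 0.94), or 1.51-fold higher, with limma's adjusted p = 0.1 and an exact permutation p of 0.0357. Without control replicate 2 the change was 0.71 with adjusted p = 0.0176. Over the fits that each left out 1 sample the change ran from 0.55 to 0.71, the adjusted p up to 0.284 and the exact permutation p up to 0.0714.

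Cdkn1a and the median of the red pulp macrophage markers shared part of their order across samples. Knockout replicate 2 was the highest sample in both. The 3 knockouts and control replicate 2 stood above every other control in both. Among the knockouts, and among the other controls, the order differed. Knockout replicate 1, lowest of the knockouts in these markers, had more Cdkn1a than knockout replicate 3. Control replicate 3, lowest of all samples in these markers, read 9.64 for Cdkn1a, against 9.53 and 9.49 in control replicates 5 and 6. Set against the control mean, the median of these 8 markers stood at 0.30 in knockout replicate 1, 0.82 in replicate 2 and 0.76 in replicate 3, while controls spanned -0.70 to 0.66, and the 0.66 belonged to control replicate 2, the control highest in Cdkn1a. Their median change was 0.67, with 0 of 8 past 0.05 and 5 with an unadjusted p under 0.05, all higher in the knockout, where 5.5% of all genes were. The defining gene Spic was measured above the median gene in every sample, as were all 8 on average. The part of these cells in the Cdkn1a difference was not tested.

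**Figure D3:**
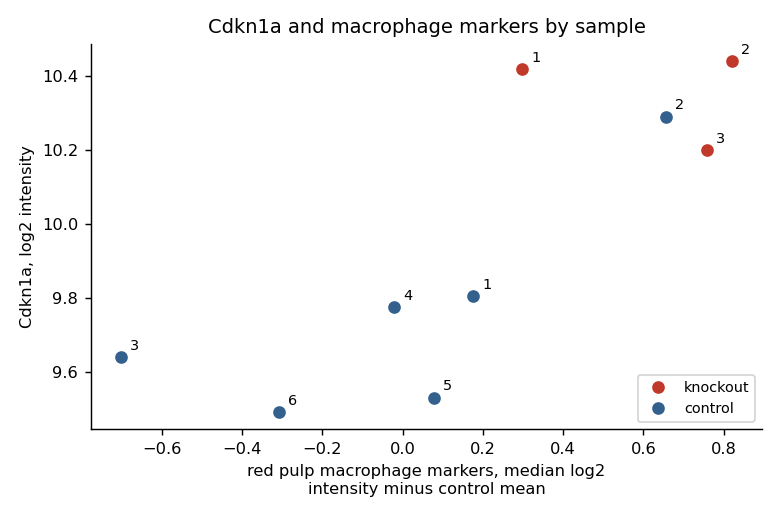
Log2 intensity of Cdkn1a (vertical) against the median of 8 red pulp macrophage markers relative to the control mean (horizontal, log2) in 3 knockout samples (red) and 6 control samples (blue), numbered by replicate. Control replicate 2 stands with the knockouts in both measures, and the marker median of knockout replicate 1 is 0.30.

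Upstream of its first annotated start, Cdkn1a holds a repeat that matches the p53 consensus, shown because p53 is its best known activator (chr17:29090729-29090978, plus strand, RefSeq GRCm38.p6, capitals marking the match).
Cdkn1a: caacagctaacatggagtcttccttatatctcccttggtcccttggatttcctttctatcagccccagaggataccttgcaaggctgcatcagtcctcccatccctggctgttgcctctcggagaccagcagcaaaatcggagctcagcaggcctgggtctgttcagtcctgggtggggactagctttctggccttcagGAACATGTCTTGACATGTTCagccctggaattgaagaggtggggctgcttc
The search took a pair of adjacent 10-base repeats of the p53 consensus with 1 mismatch allowed outside their cores, and 0.0548% of all windows (18) held one. The match begins 51 bases before the start. Other genes under p53 lay to both sides of 0. Of 16 measured genes of the p53 list, 8 changes lay above 0 and 8 below, and the median was -0.0015. In this list 1 gene rose and 0 fell, where 0.415% of all genes rose and 0.491% fell. The 1 gene was Fas, the death receptor, with 8.41, 8.32 and 8.40 in the knockouts, against a lowest of 7.63, a median of 7.74 and a highest of 7.91 in the controls (change 0.63, SE 0.07, limma's adjusted p = 0.00421). Mdm2, the ubiquitin ligase that p53 induces and that degrades it, differed by 0.34 (adjusted p = 0.179), and Sesn1, a stress sensor, by -0.29 (adjusted p = 0.0874). At limma's unadjusted p under 0.05, 3 of the 16 were higher and 1 was lower. Over all genes 5.5% were higher and 8.82% lower at that p. Trp53, Bax and Gadd45a of this list were not measured by a probe of their own. The part of p53 in the Cdkn1a difference was not tested.

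Cdkn1b encodes p27, the inhibitor that accumulates in resting cells and is controlled mostly through degradation of the protein. It had 10.22, 10.26 and 10.13 in the knockouts, against a lowest of 9.83, a median of 10.14 and a highest of 10.25 in the controls. All 3 knockouts lay above the 3 lower controls, and their range overlapped with that of the 3 higher ones. The change was 0.13 (SE 0.10, interval -0.10 to 0.35, limma's adjusted p = 0.634), and it was 0.079 without control replicate 3. Of the 9 measured genes that set the level of p27, 0 passed 0.05, and the median was -0.06. An unadjusted p under 0.05 was found for 1 of these 9, and for 14.3% of all genes. Among the 9 were Cks1b (-0.30, adjusted p = 0.214) and Skp2 (-0.16, adjusted p = 0.406), which together mark p27 for degradation.

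Most partners and upstream kinases of the 10 had changes below 0, and 1 passed the threshold. Of 8 measured G1 cyclins and kinases, 1 fell and 0 rose, with a median of -0.20, where 0.491% of all genes fell and 0.415% rose. Cdk4, the kinase that opens the switch with cyclin D, had 10.02, 10.08 and 9.89 in the knockouts, against a lowest of 10.29, a median of 10.40 and a highest of 10.66 in the controls (change -0.43, SE 0.09, limma's adjusted p = 0.0497). It sat at the edge of the threshold, and no gene of this list passed when any 1 sample was left out. Ccnd1, cyclin D1, had 11.51, 11.53 and 11.29 in the knockouts, against 11.71 to 11.90 in the controls (change -0.34, adjusted p = 0.0519). In this list 6 changes lay below 0 and 2 above, and the median over all genes was -0.01. Those above were Ccnd2, cyclin D2 (0.19, adjusted p = 0.344), and Cdk6 (0.24, adjusted p = 0.553).

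Of the 5 other E2F and DP factors 0 passed, with a median of -0.10. E2f6, a repressor that works without pocket proteins, had 6.62, 6.66 and 6.54 in the knockouts, against 6.84 to 7.10 in the controls (-0.33, adjusted p = 0.0605), and Tfdp1, the DNA-binding partner of most E2Fs, differed by -0.38 (adjusted p = 0.158). Of the 5 other CDK inhibitors 0 passed, with a median of -0.10, and Cdkn2c, the CDK4 and CDK6 inhibitor p18, differed by -0.48 (adjusted p = 0.126) and Cdkn2d, p19, by -0.17 (adjusted p = 0.299), both opposite in sign to Cdkn1a. The MuvB core is a part of the DREAM complex together with p130 or p107, and B-Myb is listed beside that core. Of the 6 genes of this list 0 passed, with a median of -0.19, Lin9 at -0.29 (adjusted p = 0.0742) and Rbbp4 at -0.22 (adjusted p = 0.184). At an unadjusted p under 0.05 the counts lower in the knockout were 2, 2 and 4 in these 3 lists, and 0 were higher. Over all genes 8.82% were lower and 5.5% higher at that p.

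The genes that E2F factors switch on had a change below 0 in 28 of 29 cases. Of these 29 E2F targets of G1 and S phase, 5 fell and 0 rose, where 0.491% of all genes fell and 0.415% rose. The median change of these targets was -0.54, and over all genes it was -0.01. Ccna2, cyclin A2, had 8.92, 8.79 and 8.53 in the knockouts, against a lowest of 9.25, a median of 9.33 and a highest of 9.50 in the controls (change -0.59, SE 0.09, limma's adjusted p = 0.0175). Pole, the leading-strand DNA polymerase, fell by 0.64 (adjusted p = 0.0392), Gins2, part of the replicative helicase, by 0.52 (adjusted p = 0.0402), and Cdc45, which joins the helicase, by 0.51 (adjusted p = 0.0406). The fifth was Tk1, thymidine kinase, with -0.43 (adjusted p = 0.0464). In 21 of the 29 every knockout lay below every control, as in 4.88% of all genes. Of 19 measured G2 and M phase genes, which DREAM represses, 4 fell and 0 rose, with a median of -0.55, and in 11 every knockout lay below every control, against the same 4.88% of all genes. They were Ube2c, which ubiquitinates mitotic cyclins (-0.56, adjusted p = 0.0106), the mitotic kinases Plk1 (-0.61, adjusted p = 0.0242) and Aurkb (-0.52, adjusted p = 0.031), and Cdc20, an activator of the anaphase-promoting complex (-0.62, adjusted p = 0.0262).

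These counts depended on single samples. The number of G1 and S phase targets that fell was 15 when knockout replicate 1 was left out, 0 for replicate 2 and 1 for replicate 3. Over all genes the numbers that fell in these fits were 254, 7 and 48, against 109 with every sample. The median change of these targets without knockout replicate 2 was -0.60. The number of these targets that fell was 3 when control replicate 2 was left out and 1 for each other control. Over all genes 72 fell without control replicate 2 and 18 to 29 without each other control. The number of G2 and M phase genes was 15 on omitting knockout replicate 1, 1 on omitting knockout replicate 2 or control replicate 6, and 2 on omitting knockout replicate 3 or control replicate 3 or 4.

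**Figure D4:**
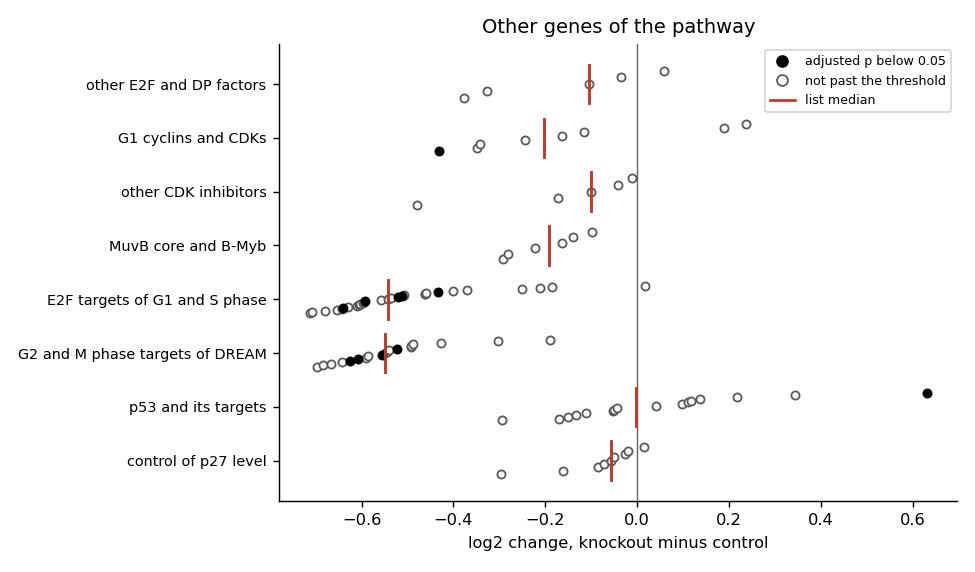
Log2 change (knockout minus control) of the measured genes of 8 lists around the 10 regulators, 1 circle per gene, filled where limma's adjusted p was below 0.05, with each list's median in red. The medians of the G1 and S phase list and the G2 and M phase list lie at -0.54 and -0.55, and the p53 list is centred near 0 with Fas at 0.63.

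The E2F and CHR motifs differed in frequency between the target lists. Of 31 windows of the G1 and S phase targets, 64.5% held the E2F motif, against 9.57% of all windows, and of 17 windows of the G2 and M phase genes 23.5% did. The CHR motif (TTTGAA and its variant with a central CG, TTCGAA, on either strand), through which MuvB binds, was in 76.5% of the G2 and M phase windows, against 19.2% of all windows. Of the 12 windows of the 9 regulators that had one, 41.7% held the E2F motif and 33.3% the CHR motif, and 0 held the C/EBP motif TTGCNNAA, which 10.8% of all windows held. Such windows leave out more distant sites.

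Sample by sample, 5 of the 10 regulators (E2f1, E2f7, E2f8, Rbl1 and Rbl2) stood in the same order as the target lists among the knockouts. So few samples allow few orders, and the share of all genes in this order was not counted. Relative to the control mean, the G1 and S phase targets had medians of -0.24, -0.41 and -0.94 in knockout replicates 1, 2 and 3, and the controls spanned -0.11 to 0.11. The G2 and M phase genes had -0.20, -0.53 and -0.85, and the controls spanned -0.14 to 0.17. Both lists were lower in each knockout than in any control. Rbl1 stood at -0.18, -0.39 and -0.60, E2f7 at -0.10, -0.22 and -0.53, E2f8 at -0.07, -0.68 and -0.83 and E2f1 at -0.09, -0.26 and -0.77 in the same samples. Knockout replicate 3 was the lowest in all 4 genes and both lists, and knockout replicate 1 lay within the control range for E2f1 and E2f8 and under it for Rbl1, E2f7 and both lists. The other 5 stood in other orders: E2f2 at -0.14, -0.48 and 0.00, E2f3 at -0.17, -0.26 and -0.20, Rb1 at 0.09, -0.14 and 0.06, and Cdkn1b at 0.14, 0.18 and 0.06. Cdkn1a stood at 0.66, 0.69 and 0.45, and its part in the values of the target lists was not tested.

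Knockout replicate 3 was also the sample with the strongest B cell signal. The 7 B cell markers had medians of 0.05, -0.07 and 0.70 over the control mean in these knockout samples, and the controls spanned -0.06 to 0.03. Without knockout replicate 3 the change of E2f8 was -0.37, of E2f7 -0.16 and of Rbl1 -0.28, and the median of the G1 and S phase targets was -0.37. The part of B cell RNA in the values of replicate 3 was not tested.

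**Figure D5:**
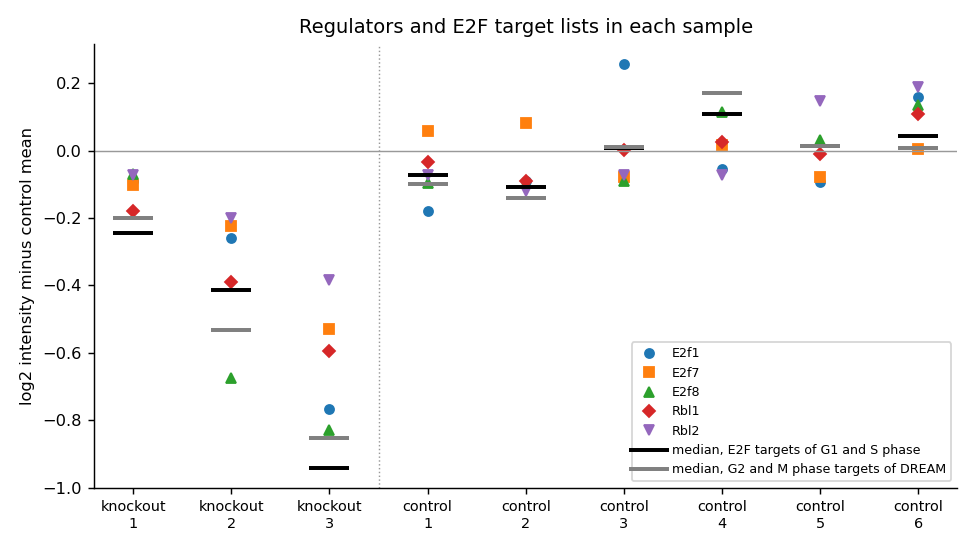
Log2 intensity minus the control mean of E2f1, E2f7, E2f8, Rbl1 and Rbl2 (symbols) and the medians of the E2F target list of G1 and S phase (black bars) and the G2 and M phase list (grey bars) in the 3 knockout samples (left of the dotted line) and 6 control samples. The target medians are -0.24, -0.41 and -0.94 in the knockouts for the G1 and S phase list and stay between -0.11 and 0.11 in the controls. Only the regulators with the same knockout order as both lists are drawn.

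With group means removed, the genes above the median level whose pattern over the 9 samples was most like that of E2f1 were Zfp277 (Pearson r = 0.997), Tmem109 (r = 0.988) and Lsm8 (r = 0.987). These values share the 9 arrays and are a description over few samples, picked as the highest of many genes.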

How the data were processed

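Total RNA of sorted splenic DCs was measured on 9 arrays (3 knockout, 6 control), grouped by the genotype label. The authors deposited log2 intensities per probe, made with RMA per the submitters' processing notes. RMA corrects background, normalizes by quantiles and summarises probes. Its version, like the genome build, was not given in the sources used here. Log base 2 was inferred from the range of values. Quantile normalization removes a shift shared by most genes. Of 41801 rows, 34468 had a value in every sample, and 23521 of these carried 1 gene symbol in the platform's annotation. Each gene was read by its brightest such probe, with no filter on signal, which gave 22180 genes.

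Groups were then tested with limma 3.58.1 in R 4.3.3 (lmFit and eBayes, two-sided, no covariate), with Benjamini-Hochberg adjustment over all genes and a threshold of 0.05. For single genes an exact permutation test, two-sided, used all 84 assignments of samples. Changes are log2 differences of knockout minus control, and SE is limma's. The number of arrays limits the precision. In simulated data of 22180 genes the fit recovered 68.7% of simulated shifts of 0.5 (log2) and 97% of shifts of 1. The noise was drawn independently for each gene and array with each gene's own SD, and the shifted genes were picked at random. Differences that many genes of an array share were not simulated, so these percentages do not give the recovery for the regulators.

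The 10 members, the 8 pathway lists (97 of 106 entries measured) and the 10 cell type lists (60 of 68) were chosen with earlier results of these data known. In each pathway list the genes with the smallest p were named, up to 4 past the threshold or up to 2 where fewer than 2 passed, and in each cell type list the 2 brightest, printed here for DCs. The 3 genes most like E2f1 were picked by Pearson r. Jchain, Tk1, Mdm2, Spic and genes given only in passing were chosen after their values were seen. Motifs were searched in RefSeq promoter windows (GRCm38.p6, 250 bases before to 50 after a start). Alternatives were array centring, a second quantile normalization, trend and robust eBayes (statmod 1.5.0), array weights, the replicate number as a block, a filter on level, other probe choices and each sample left out. Figures were made with matplotlib 3.10.9.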

Additional observations from a re-analysis of the deposited data

Results flagged for a closer look

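Among 52 genes and probes whose 6 controls were examined, 5 had 1 control set apart from the other 5 by Dixon's test, against about 5% of groups that chance sets apart. For E2f2, control replicate 1 read 7.68 and the next control 7.87. For Ccna2, control replicate 4 read 9.50 and the next 9.34, a gap just past the critical share of the range. The other 3 are markers of other cells. Cd3d of T cells read 5.34 in control replicate 1 and at least 5.44 in the others, Treml4 of monocytes read 10.92 in control replicate 3 and at least 11.27 in the others, and Tcf4 of plasmacytoid DCs read 8.41 in control replicate 4 and at least 8.52 in the others.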

How the results depend on the processing

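Over 17 alternatives, 155 of 170 refitted changes of the 10 regulators kept their direction and stayed short of the threshold, 9 passed it, and 6 turned in sign, all of Rb1. Rb1 was -0.0046 after a second quantile normalization, -0.054 with array weights, and -0.041 to 0.073 over the fits without 1 sample. Array weights gave E2f8 -0.55, Rbl1 -0.36 and Cdkn1a 0.66, all past 0.05. The filter on level gave Rbl1 -0.39 and Cdkn1a 0.60, and the second quantile normalization gave Rbl1 -0.36, also past 0.05. Leaving out 1 sample, E2f8 ranged from -0.75 to -0.37, Rbl1 from -0.49 to -0.28 and Cdkn1a from 0.55 to 0.71. Regulators called lower numbered 2 with array weights, 1 with the filter on level and 1 after the second quantile normalization, and 0 to 2 without 1 sample. Those called higher numbered 1 with array weights, 1 with the filter and 0 to 1 without 1 sample. The share of all tested genes called also moved, from 0.906% to 2.94% with array weights and 4.84% with the filter. It was 1.2% after the second quantile normalization and 0.149% to 1.5% without 1 sample. Regulators below every control numbered 3 to 6, and above every control 0 to 1, without 1 sample, where the shares of all genes were not counted. After centring 2 lay below every control, against 3 before. With the block Rbl2 was -0.13 and Cdkn1b 0.24, neither past 0.05.

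Targets of G1 and S phase called lower numbered 14 with array weights, 18 with the filter, 0 with the replicate block and 0 to 15 without 1 sample. G2 and M phase genes numbered 7 after the second quantile normalization, 9 with array weights, 10 with the filter, 0 with the block and 1 to 15 without 1 sample. G1 cyclins and kinases numbered 2 after the second quantile normalization, with trend and robust fitting, with array weights and with the filter, 0 with centring, with the block, with the mean of probes, with all probes and without any 1 sample. The other E2F and DP factors and the MuvB genes each numbered 1 with array weights and with the filter, and the MuvB genes and the other CDK inhibitors 0 to 1 without 1 sample. The p53 genes lower numbered 1 with array weights and 1 with the filter, and higher 0 with the block. The filter lowered the genes tested to 11090, of which 4.84% were called. The mean of both Rb1 probes gave Rb1 0.25. The cause of the other shifts was not tested.

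No label says that the replicate numbers pair the samples. Same-numbered samples deviated from their group means with correlations of -0.143, -0.103 and 0.0469. These correlations cannot settle pairing, because removing the group mean ties the deviations within a group to each other. With the replicate block 2 of 22180 genes were called, and Cebpb was at -1.47 with limma's adjusted p = 0.138. Depth does not apply to arrays, and the dim Rb1 probe read below the median gene in every sample.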

Other observations

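Several regulators carried exactly the same deposited value in different arrays. E2f3 read 7.18 in control replicates 2, 3 and 4, equal to 4 decimals, and Rbl2 read 9.80 in knockout replicate 1 and control replicates 1 and 4. E2f7, E2f8 and Rb1 each had 1 value shared by 2 controls, and the other 5 regulators had none. For E2f3, E2f7 and E2f8 the shared value is also the lowest control.

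Other lists of cell markers gave smaller values. The monocyte markers had a median change of 0.27 with 0 of 7 past 0.05, the plasmacytoid DC markers 0.22 with 0 of 5, the plasma cell markers 0.27 with 1 of 5, the B cell markers 0.29 with 0 of 7, and the erythroid markers 0.09 with 0 of 3. The T cell markers (0.07, 0 of 5), NK cell markers (-0.04, 0 of 5) and neutrophil markers (0.09, 0 of 6) had mean levels below the median gene in every sample. At an unadjusted p under 0.05 these 8 lists had 3, 1, 3, 2, 1, 0, 1 and 1 members higher in the knockout, in the order given, and 1 T cell marker lower. Over all genes 5.5% were higher and 8.82% lower at that p.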
